A study of Mus musculus with 4 samples.

Results

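Whether tooth matrix mineralises depends on the balance of phosphate and pyrophosphate outside the cell, and 10 genes of that balance were compared between molar and incisor pulp. They are Alpl, Enpp1, Ank, Phospho1, Smpd3, Slc20a1, Slc20a2, Phex, Mgp and Sost, chosen by name with earlier results of these data known. Each matched a single row among the 24216 rows of the authors' deposited table. The cells were taken from the pulp of XLacZ4 mice and sorted by FACS for cleavage of FDG, a substrate that fluoresces once beta-galactosidase has cut it. XLacZ4 is a transgenic reporter strain known for LacZ activity in pericytes and vascular smooth muscle, the mural cells of vessels. The groups are molar pulp with 2 libraries and incisor pulp with 2 libraries, both XLacZ4 and both sorted for FDG, and the labels give no age, no treatment and no number of animals. The incisor protocol text also speaks of molars, and the other labels of those libraries name only the incisor.

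Hydroxyapatite, the mineral of dentin, cementum, enamel and bone, grows from calcium and inorganic phosphate, and inorganic pyrophosphate blocks that growth. Tissue-nonspecific alkaline phosphatase, the product of Alpl, destroys pyrophosphate and frees phosphate, while Enpp1 makes pyrophosphate from ATP and the membrane protein Ank helps to bring it, or the ATP it comes from, out of the cell. The first crystals are thought to form inside matrix vesicles shed by odontoblasts and osteoblasts, and cementum and the walls of arteries are known in mice and people to be sensitive to the same balance.

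The table holds 1 FPKM value per tissue (fragments scaled by transcript length and by sequencing depth), in which the authors had combined the 2 libraries, so no value below has an SD and the depth behind it is unknown. A difference in sorting, preparation or sequencing between the tissues cannot be told apart from a difference between the teeth. A gene is described as called where the q value in the authors' deposited table is under 0.05. The smallest p of the authors' test was 5e-05, and rows with that p share the lowest q, 0.000664. That q therefore does not rank the genes that share it. The labels do not tie a library to an animal, so a q value may measure technical spread. In bulk RNA, fewer cells of a type and less RNA per cell cannot be told apart.

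Alpl and Ank were the members with the smallest q values, and they were called in opposite directions, so the stretches around their transcription starts are shown first. They come from RefSeq on GRCm38.p6, the same assembly as mm10, and run from 250 bases before to 50 bases after the start, written 5′ to 3′ on the gene's strand. Alpl has 2 such windows, at chr4:137796335-137796634 (minus strand) and, downstream in the gene, at chr4:137766426-137766725 (minus strand), and the window of Ank lies at chr15:27466427-27466726 (plus strand). The deposited row of Alpl spans both starts and does not separate them. Capitals mark matches on either strand to 5 motifs, namely the GC box GGGCGG, the TATA box TATAAA, the RUNX core TGTGGT, the homeobox core TAATTA and the AP-1 site TGANTCA.
Alpl upstream start: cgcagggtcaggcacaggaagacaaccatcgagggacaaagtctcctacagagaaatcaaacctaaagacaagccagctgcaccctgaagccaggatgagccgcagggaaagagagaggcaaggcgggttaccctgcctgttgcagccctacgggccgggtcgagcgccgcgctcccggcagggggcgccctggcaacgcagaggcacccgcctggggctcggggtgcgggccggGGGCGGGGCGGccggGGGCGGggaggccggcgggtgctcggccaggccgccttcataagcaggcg
Alpl downstream start: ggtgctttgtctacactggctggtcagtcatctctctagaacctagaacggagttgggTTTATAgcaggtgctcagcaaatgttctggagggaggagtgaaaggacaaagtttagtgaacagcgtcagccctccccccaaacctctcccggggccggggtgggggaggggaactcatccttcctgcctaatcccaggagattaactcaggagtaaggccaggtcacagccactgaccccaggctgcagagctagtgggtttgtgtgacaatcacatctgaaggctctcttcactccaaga
Ank: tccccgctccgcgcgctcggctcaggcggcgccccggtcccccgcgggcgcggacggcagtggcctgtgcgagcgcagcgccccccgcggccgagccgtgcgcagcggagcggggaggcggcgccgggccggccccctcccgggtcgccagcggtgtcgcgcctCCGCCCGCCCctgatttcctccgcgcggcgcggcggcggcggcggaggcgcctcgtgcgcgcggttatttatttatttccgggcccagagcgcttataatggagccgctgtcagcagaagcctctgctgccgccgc

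The upstream Alpl window held 3 GC box matches and the Ank window held 2, some of them overlapping, and none of the other 4 motifs matched in either. The downstream Alpl window held a single match, to the TATA box on the opposite strand. Of 32851 windows of the same length, 35.7% held a GC box, 13.6% a TATA box, 16.8% a RUNX core, 5.29% a homeobox core and 7.81% an AP-1 site. The GC content was 70.0% in the upstream Alpl window, 54.3% in the downstream Alpl window and 78.0% in the Ank window, against a median of 52.7% over all windows. Windows were found for 7 of the 10 genes, and a match describes letters, not a bound factor.

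Of the 10 genes, 9 had been tested in the authors' deposited table and 4 were called. Alpl and Slc20a2 were the 2 higher in molar, and Ank and Smpd3 were the 2 higher in incisor. Over all 18770 tested rows 16.2% were called, with molar higher in 11.9% of rows and incisor higher in 4.28%. Slc20a1 lay just outside the threshold with q = 0.0502 and Smpd3 just inside it with q = 0.0488 in the authors' deposited table. At q under 0.01, 2 of the 9 tested members were left, Alpl toward molar and Ank toward incisor, beside 11.1% of all tested rows, with molar higher in 8.80% and incisor higher in 2.27%. The authors' own mark of significance, which reached up to q = 0.0600, took in Slc20a1 as well, which made 5 marked members, 2 of them higher in molar and 3 higher in incisor. That mark fell on 17.3% of all tested rows, 12.7% higher in molar and 4.69% higher in incisor. On the scale of log2((molar FPKM + 1) / (incisor FPKM + 1)), which understates the difference of low genes, the members ran from 1.57 for Alpl to -2.20 for Ank. The median on that scale was -0.055 over the 9 tested members, with 0.21 over all tested rows. It was -0.028 over all 10 and -1.30 over the 6 members with at least 1 FPKM in either tissue, so it depends on which members enter.

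**Figure D1:**
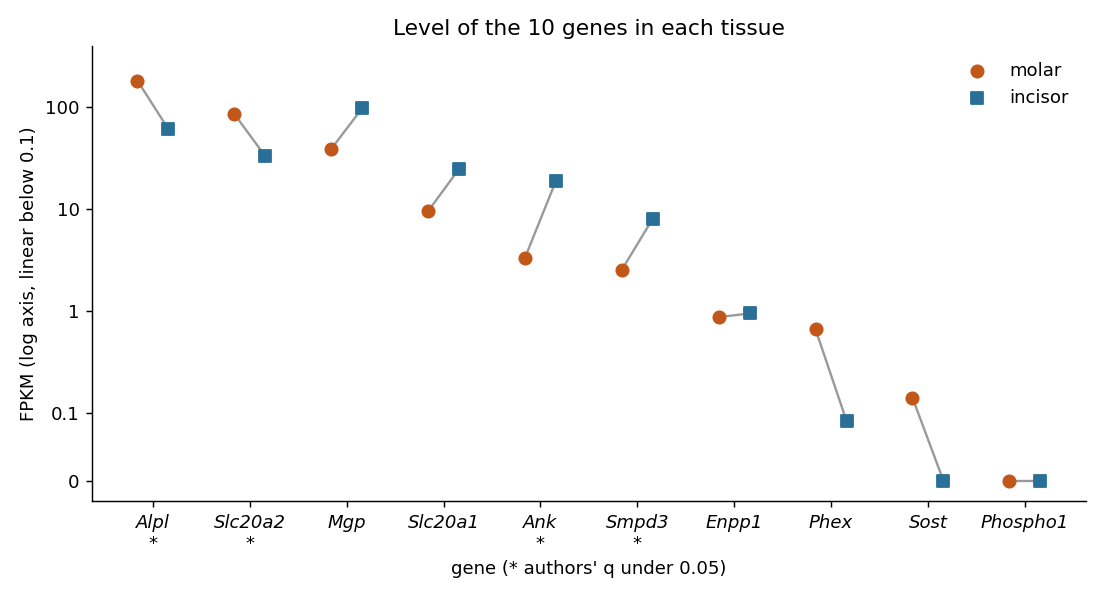
FPKM of each of the 10 genes in molar (circles) and incisor (squares), on a log axis that is linear below 0.1, with 1 combined value per tissue and therefore no error bar; an asterisk marks an authors' q under 0.05. Alpl at 183 and Slc20a2 at 86.1 led in molar, Mgp at 97.7 led in incisor, and Phospho1 was listed at 0 in both tissues.

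The levels spanned a wide range. In molar pulp the order by FPKM was Alpl, Slc20a2, Mgp, Slc20a1, Ank, Smpd3, Enpp1, Phex and Sost, with Phospho1 listed at 0. In incisor pulp Mgp came first, followed by Alpl, Slc20a2, Slc20a1, Ank, Smpd3, Enpp1 and Phex, and Phospho1 and Sost were listed at 0. Without a value for each library, which neighbours in these orders differ beyond their spread cannot be said. The 5 members with the highest FPKM were in the same order in the 2 tissues apart from Mgp, which stood behind Alpl and Slc20a2 in molar and ahead of them in incisor.

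Among the genes that set pyrophosphate, the phosphatase that removes it was higher in molar and a gene that exports it was higher in incisor. Alpl (chromosome 4, 137741731 to 137796384) stood at 183 FPKM in molar and 61.1 FPKM in incisor. That was 2.996-fold higher in molar, with q = 0.00756 in the authors' deposited table. It lay above 96.9% of all rows in molar and above 95.01% in incisor, so it was abundant in both fractions. Loss of this enzyme causes hypophosphatasia, in which cementum and bone fail to mineralise.

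Ank (chromosome 15, 27466677 to 27594907) stood at 3.32 FPKM in molar and 18.9 FPKM in incisor. It was 5.69-fold higher in incisor by the authors' deposited table (q = 0.00228), the largest fold among the called members. Its level lay above 67.0% of rows in molar and above 87.6% in incisor. Mice that lack working Ank lay down excess cementum and stiffen at the joints.

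Enpp1 (chromosome 10, 24637914 to 24712159), the ectoenzyme that cuts ATP into AMP and pyrophosphate, stood at 0.872 FPKM in molar and 0.946 FPKM in incisor. It was not called, with q = 0.798 in the authors' deposited table. Both values were low, near the middle of all rows, above 47.8% of them in molar and 52.6% in incisor. Within each tissue, where a scaling between tissues cancels, the ratio of Alpl to Ank FPKM was 55.2 in molar and 3.24 in incisor, a 17.1-fold difference. The ratio of Alpl to Enpp1 FPKM was 210 in molar and 64.6 in incisor, and that of Ank to Enpp1 was 3.80 in molar and 19.97 in incisor. These ratios describe the combined values and were not tested. Alpl and Ank were the members with the smallest q values, in opposite directions, so a wide gap follows in part from that choice. The molar value of Ank also lay within the range of the olfactory, vomeronasal and taste receptor genes described below. A ratio within a tissue does not cancel such a floor.

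The other 8 genes of the pyrophosphate list held a single call. Ppa1, the soluble pyrophosphatase inside the cell, stood at 64.8 FPKM in molar and 6.30 FPKM in incisor, 10.3-fold higher in molar with q = 0.000664 in the authors' deposited table. Its mitochondrial relative Ppa2 was not called, at 5.77 FPKM in molar and 4.42 FPKM in incisor. Of the enzymes that act on nucleotides outside the cell, Enpp3 had 7.28 FPKM in molar and 5.67 in incisor, Entpd1 had 11.2 in molar and 14.0 in incisor, and Nt5e had 0.631 in molar and 0.473 in incisor, none of them called. The nucleoside carrier Slc29a1 was abundant, at 98.9 FPKM in molar and 92.9 FPKM in incisor, and was not called. Abcc6, a transporter that drives ATP release in liver, had 0.256 FPKM in molar against a listed 0 in incisor, and was not called.

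**Figure D2:**
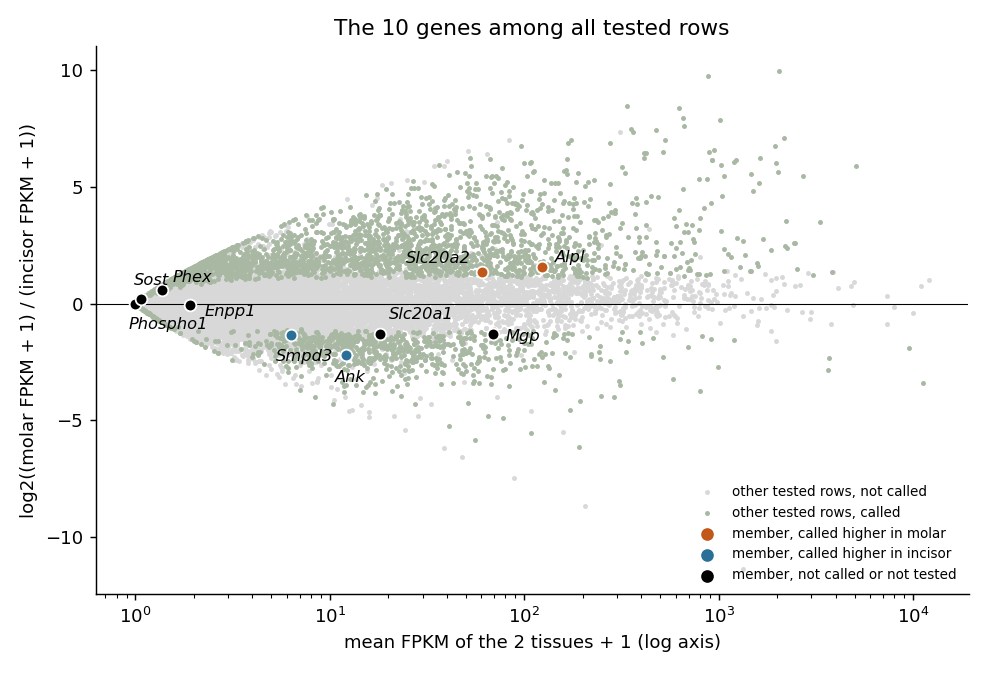
The 10 genes among all tested rows: each point is 1 row, with the mean FPKM of the 2 tissues plus 1 on a log axis and log2((molar FPKM + 1) / (incisor FPKM + 1)) on the vertical axis, above 0 where molar is higher. Alpl at 1.57 and Slc20a2 at 1.35 lie above the line, Ank at -2.20 and Smpd3 at -1.36 lie below it, and Slc20a1 at -1.29 and Mgp at -1.31 lie below it without a call.

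Both phosphate carriers of the Slc20 family were well detected, and their values pointed opposite ways. Slc20a2, which encodes the sodium-phosphate cotransporter PiT-2 (row interval on chromosome 8, 22462614 to 22569616), stood at 86.1 FPKM in molar and 33.2 FPKM in incisor. It was 2.59-fold higher in molar with q = 0.0246 in the authors' deposited table. Loss of this carrier in people leads to calcification of small vessels in the brain. Slc20a1, which encodes PiT-1 (chromosome 2, 129198773 to 129211612), stood at 9.54 FPKM in molar and 24.7 FPKM in incisor, a value 2.59-fold higher in incisor that missed the threshold with q = 0.0502 in the authors' deposited table.

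The ratio of Slc20a2 to Slc20a1 FPKM was 9.03 in molar and 1.34 in incisor, and this difference between the 2 carriers was not tested. Their summed FPKM was 95.6 in molar and 57.9 in incisor. Their transcripts, each read on its own strand, shared no 32-base word with each other or with any other GENCODE M21 gene. The opposite strand was not searched, so an overlap with a gene on that strand would not be found. The interval of the Slc20a2 row also covers its neighbour Smim19, which starts from the opposite strand. Smim19 had 6.09 FPKM in molar and 2.34 FPKM in incisor, with a log2 fold of 1.38 beside 1.38 for Slc20a2 in the authors' deposited table, but was not called (q = 0.549). Whether the counting used strand is not given in the sources used here, and the part of this overlap in the result was not tested.

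None of the other 4 genes of the phosphate transport list was called, and 2 of these had been tested. The exporter Xpr1 had 1.66 FPKM in molar and 1.55 in incisor. The carriers of kidney and gut were near or at 0, with Slc34a2 at 0.141 FPKM in molar and 0.0335 in incisor, and with Slc34a1 at 0.0660 and Slc34a3 at 0.0831 in molar, both listed at 0 in incisor and not tested.

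Of the matrix vesicle enzymes, Smpd3 was higher in incisor and Phospho1 gave no signal. Smpd3 (chromosome 8, 106252548 to 106337988) encodes neutral sphingomyelinase 2, which splits sphingomyelin into ceramide and phosphocholine, and its loss in mice leaves dentin and bone poorly mineralised. It stood at 2.53 FPKM in molar and 8.06 FPKM in incisor, 3.19-fold higher in incisor by the authors' deposited table (q = 0.0488). Phospho1 (row interval on chromosome 11, 95824500 to 95845731), the phosphatase that frees phosphate from phosphocholine inside vesicles, was listed at 0 in both tissues and not tested. A listed 0 does not show absence. The interval of its row also covers Gngt2 and Abi3, and 87.3% of the 32-base words of its transcript recur in a GENCODE M21 transcript of Zfp652, a gene upstream of it, so its value is uncertain.

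Of the other 6 genes of the matrix vesicle list, Sgms2 and Anxa5 were called. Sgms2, which makes the sphingomyelin that Smpd3 cleaves, stood at 0.957 FPKM in molar and 7.66 FPKM in incisor, 7.998-fold higher in incisor by the authors' deposited table (q = 0.0118). Anxa5, a calcium-binding annexin of vesicle membranes, stood at 1928 FPKM in molar and 647 FPKM in incisor, 2.98-fold higher in molar with q = 0.0199 in the authors' deposited table. Anxa2 (1626 FPKM in molar and 1182 in incisor) and Anxa6 (68.9 in molar and 129 in incisor) were abundant and not called. Chka, the choline kinase that makes phosphocholine, was not called, at 39.5 FPKM in molar and 23.8 FPKM in incisor.

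Phex, the endopeptidase of osteocytes and odontoblasts whose loss causes phosphate wasting through FGF23, was low in both tissues. It lies on chromosome X (157162075 to 157415286) and stood at 0.659 FPKM in molar and 0.0881 FPKM in incisor. The value was 7.48-fold higher in molar but not called, with q = 0.159 in the authors' deposited table. The osteocyte and cementocyte genes around it were low too. Fgf23 had 0.120 FPKM in molar and 0.00724 in incisor, Mepe had 0.144 in molar against a listed 0 in incisor, and Dmp1 had 0.661 in molar and 2.21 in incisor, none of them called.

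Of the 12 other genes of the phosphate hormone axis, 3 were called, namely Pth1r and Kl toward molar and Pthlh toward incisor. Pth1r, the receptor shared by parathyroid hormone and its related peptide, stood at 5.88 FPKM in molar and 1.06 FPKM in incisor, 5.53-fold higher in molar with q = 0.0241 in the authors' deposited table. Its ligand gene Pthlh went the other way, at 13.8 FPKM in molar and 51.7 FPKM in incisor, 3.75-fold higher in incisor by the authors' deposited table (q = 0.0103). Kl, the FGF23 co-receptor, was called toward molar by the authors' deposited table (q = 0.000664), at 0.926 FPKM in molar and a listed 0 in incisor. Fgfr1 (51.4 FPKM in molar and 45.97 in incisor), the vitamin D receptor gene Vdr (19.1 in molar and 12.5 in incisor) and the kinase gene Fam20c (4.84 in molar and 5.73 in incisor) were not called.

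Mgp was the most abundant member in incisor. It encodes matrix Gla protein, a vitamin K-dependent inhibitor of calcification made by vascular smooth muscle and cartilage, and mice without it calcify their arteries. Mgp (chromosome 6, 136872435 to 136875805) stood at 38.8 FPKM in molar and 97.7 FPKM in incisor, 2.52-fold higher in incisor but not called, with q = 0.129 in the authors' deposited table. It lay above 90.4% of rows in molar and above 96.7% in incisor. The ratio of Alpl to Mgp FPKM was 4.72 in molar and 0.626 in incisor, a difference that was not tested.

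The vitamin K cycle on which Mgp relies held a large difference in a single gene. Vkorc1, the reductase that recycles vitamin K, stood at 551 FPKM in molar and 33.5 FPKM in incisor, 16.4-fold higher in molar with q = 0.000664 in the authors' deposited table. Its relative Vkorc1l1 had 2.14 FPKM in molar and 3.81 in incisor, and Ggcx, the carboxylase that uses the vitamin, had 2.52 in molar and 7.40 in incisor, neither of them called. Ecm1, a secreted glycoprotein reported to restrain mineralisation, stood at 20.3 FPKM in molar and 5.29 FPKM in incisor, 3.84-fold higher in molar with q = 0.00422 in the authors' deposited table. Spp1, which encodes the mineral-binding phosphoprotein osteopontin, was not called, at 129 FPKM in molar and 207 FPKM in incisor. In all, 2 of the 9 other genes of this list were called, both higher in molar.

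Sost encodes sclerostin, which osteocytes and cementocytes secrete to block Wnt signalling through LRP5 and LRP6. Sost (chromosome 11, 101962458 to 101967015) had 0.141 FPKM in molar against a listed 0 in incisor. It was not called, since q was 0.252 by the authors' deposited table, and no fold is given against a listed 0. Its relative Sostdc1 and the receptors Lrp4 and Lrp6 were better detected and were called toward incisor. Sostdc1, a secreted relative of sclerostin active in tooth germs, stood at 35.3 FPKM in molar and 228 FPKM in incisor, 6.46-fold higher in incisor by the authors' deposited table (q = 0.000664). Lrp4, which binds both proteins, had 2.02 FPKM in molar and 18.3 FPKM in incisor, and was called in the authors' deposited table (q = 0.000664). Lrp6, the Wnt co-receptor, had 2.33 FPKM in molar and 6.83 FPKM in incisor, and was called there as well in the authors' deposited table (q = 0.0294). These made 3 of the 6 other genes of the list, and Lrp5, at 1.05 FPKM in molar and 0.644 in incisor, was not called.

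**Figure D3:**
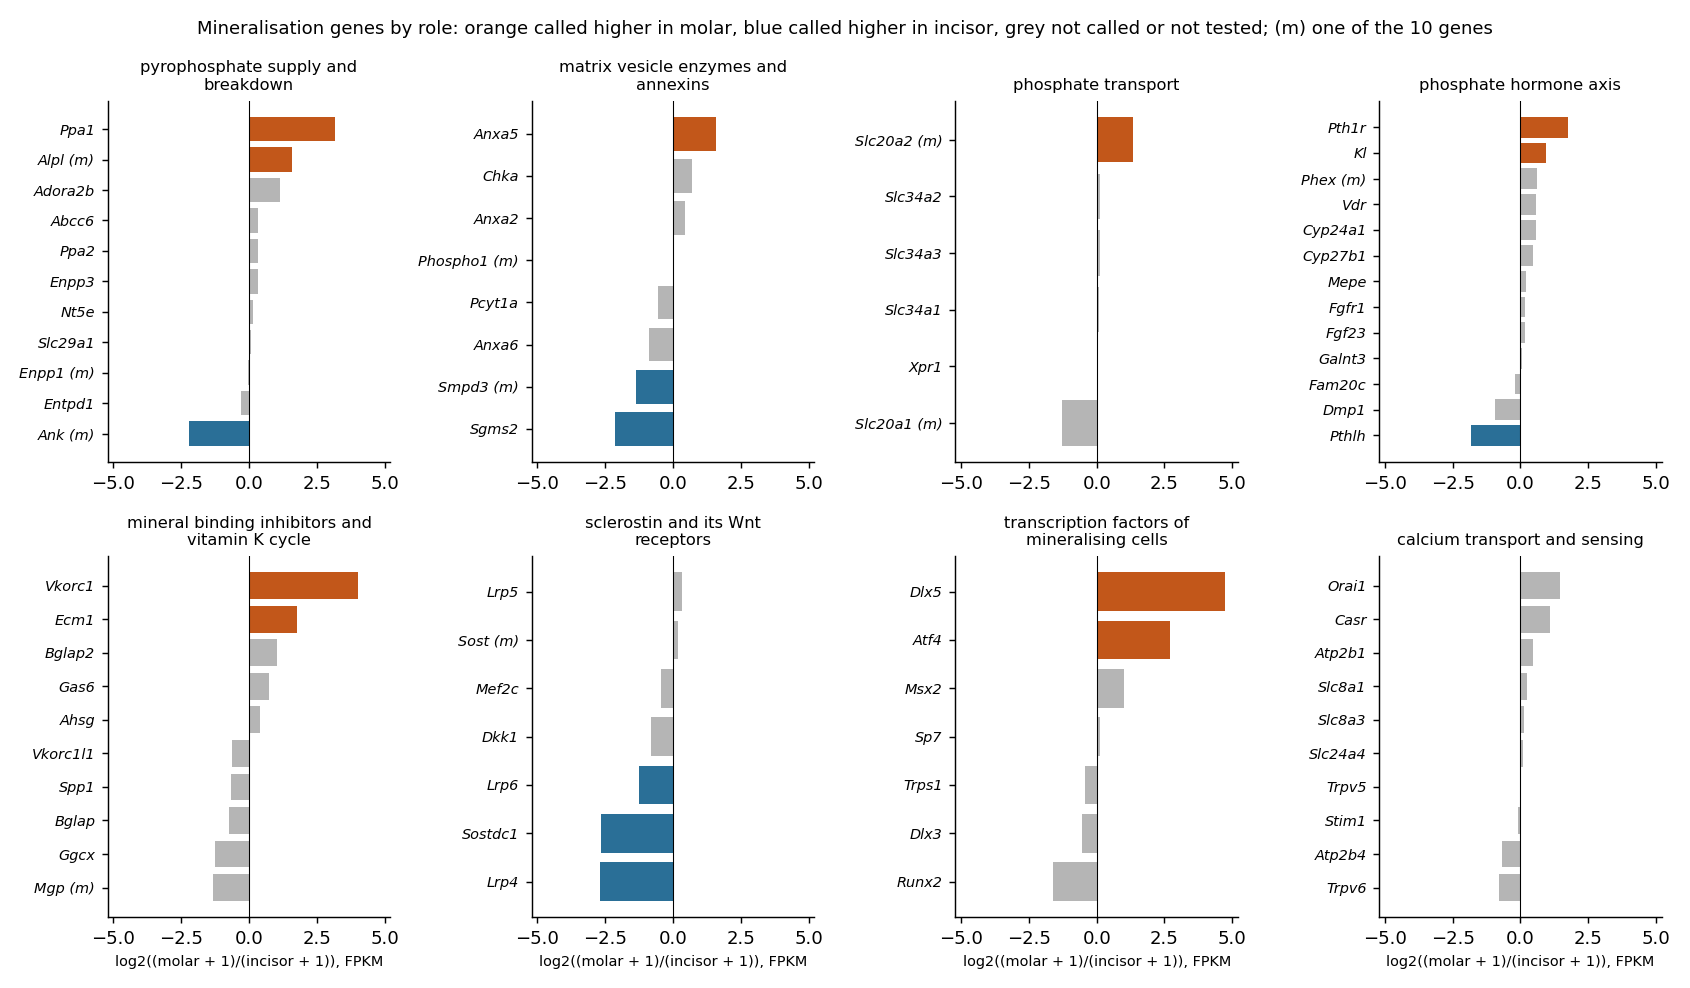
Each bar is log2((molar FPKM + 1) / (incisor FPKM + 1)) of 1 gene, grouped by role, with (m) after the 10 members; orange bars mark genes called toward molar, blue bars those called toward incisor, and grey bars were not called or not tested. The 3 blue bars of the sclerostin panel are Lrp4, Sostdc1 and Lrp6, and the calcium panel holds no called gene.

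Of the 7 transcription factors of mineralising cells reported here, 2 were called, Dlx5 and Atf4. Dlx5, a homeobox factor of jaw and bone, stood at 131 FPKM in molar and 3.91 FPKM in incisor, and Atf4, a factor of the osteoblast and of amino acid stress, stood at 282 in molar and 42.3 in incisor, both higher in molar with q = 0.000664 in the authors' deposited table. The osteoblast regulators Runx2 (3.61 FPKM in molar and 13.02 in incisor) and Sp7 (5.201 in molar and 4.70 in incisor) were not called. The authors' deposited table called none of the 8 tested calcium transport and sensing genes, and 1 had an unadjusted p under 0.05, the store-operated channel Orai1 at 8.08 FPKM in molar and 2.32 FPKM in incisor. Over the 62 genes of all these lists without the members, 58 were tested and 13 of these (22.4%) were called in the authors' deposited table, beside 16.2% of all tested rows. Molar was the higher tissue for 8 of the 13 and incisor for 5.

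Several cell types known to make the members left their markers in both fractions. Odontoblast and osteoblast genes, 8 in all, were called higher in incisor in 2 cases (Dspp and Ibsp) and higher in molar in none. Their FPKM summed to 176 in molar and 500 in incisor, with none at 0. Without Col1a1, which was not called, the sums were 22.5 in molar and 184 in incisor. Dental epithelial genes were called higher in incisor in 7 of 9 cases and higher in molar in none, with sums of 2636 in molar and 23484 in incisor and none at 0, or 699 in molar and 2841 in incisor without Amelx. The enamel organ is a known site of Alpl in a layer beside the ameloblasts. Of the 7 endothelial genes 6 were called, all 6 with molar as the higher tissue, with sums of 234 in molar and 10.4 in incisor and with Cldn5 listed at 0 in incisor.

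Of the 10 mural genes, the cells that the sort was meant to enrich, 2 were called with molar higher and 3 with incisor higher, with sums of 350 FPKM in molar and 762 FPKM in incisor and none at 0. Rgs5 was the largest part of both sums, at 127 FPKM in molar and 537 FPKM in incisor. The other 9 summed to 224 in molar and 225 in incisor, but these near-equal sums combine genes called in opposite directions. Kcnj8 (108.3 in molar, 15.98 in incisor) and Des (3.17 in molar, 0.155 in incisor) were called higher in molar. The molar value of Des lay within the range of the receptor genes described below, so its call is uncertain. Pdgfrb (12.6 in molar, 30.3 in incisor) and Cd248 (35.4 in molar, 82.5 in incisor) were called higher in incisor, as was Rgs5. Of 5 pulp fibroblast genes 1 was called with molar higher and 2 with incisor higher, with sums of 3994 in molar and 2358 in incisor. Without Lum, which was not called, the fibroblast sums were 1215 in molar and 806 in incisor. Dcn (1047 in molar, 367 in incisor) was called higher in molar. Pdgfra (5.55 in molar, 26.4 in incisor) and Sfrp2 (13.2 in molar, 330 in incisor) were called higher in incisor. Of 4 cartilage genes, from another known source of Mgp, 2 were called with molar higher and 1 with incisor higher, with sums of 49.2 in molar and 41.5 in incisor, or 15.6 in molar and 33.04 in incisor without Col9a2. Most of that last incisor sum was Sox9 (10.6 in molar, 31.2 in incisor), the gene called higher in incisor. Col2a1 (4.11 in molar, 0.525 in incisor) was called higher in molar, as was Col9a2. Macrophage genes summed to 5717 in molar and 4018 in incisor with 1 of 5 called, higher in incisor, and osteoclast genes summed to 678 in molar and 328 in incisor with 2 of 4 called, higher in molar. Without Acp5 the osteoclast sums were 174 in molar and 172 in incisor. Neutrophil genes, from a cell known for alkaline phosphatase in people, summed to 10.3 in molar and 21.8 in incisor with 1 of 4 called, higher in incisor, and with Camp listed at 0 in molar. Osteocyte and cementocyte genes summed to 1.73 in molar and 2.30 in incisor, or 1.06 in molar and 0.0953 in incisor without Dmp1. None of the 5 was called, 1 (Phex) had an unadjusted p under 0.05, and Sost and Mepe were listed at 0 in incisor. The molar values of all 5 lay within the range of the receptor genes described below, which limits what these sums can show. The part of these cell types in the differences of Alpl, Ank, Slc20a2, Smpd3 and Mgp was not tested.

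**Figure D4:**
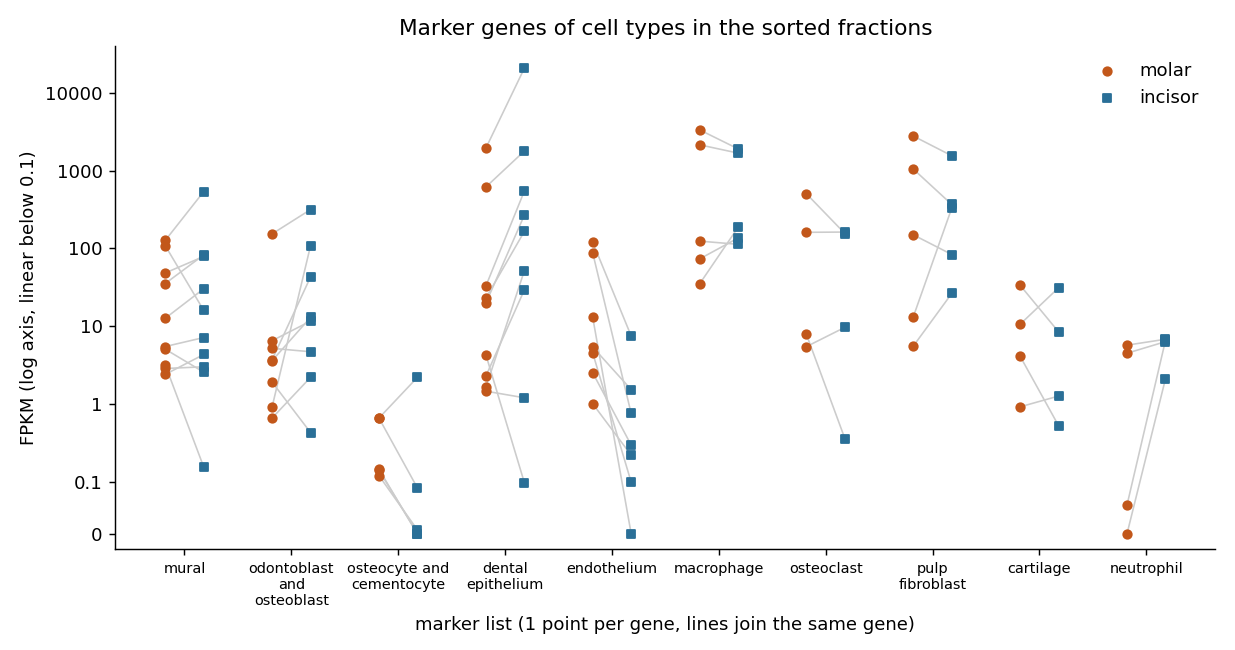
FPKM of the marker genes of 10 cell types in molar (circles) and incisor (squares), 1 pair of points per gene, on a log axis that is linear below 0.1. Dental epithelial genes stand higher in incisor for all but Odam and Klk4, endothelial genes stand higher in molar throughout, and osteocyte genes stay at or below 2.21 in both tissues.

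The scale and the floor of the table set limits on the low members. FPKM summed to 815089 in molar and 539574 in incisor, a log2 ratio of 0.60. Rows above 0 in both tissues had a median log2 fold of 0.22. With totals made equal, the log2 difference was 0.98 for Alpl, 0.76 for Slc20a2, -2.64 for Ank and -1.76 for Smpd3, so each kept its direction. Calls under another scaling were not tested. Olfactory, vomeronasal and taste receptor genes, 1493 rows chosen after values were seen because pulp is not known to use them, had a 99th percentile of 3.77 FPKM in molar and 0.146 FPKM in incisor. The molar values of Ank, Smpd3, Enpp1, Phex and Sost lay within that range, and 9.04% of the receptor rows stood at or above Phex and 45.1% at or above Sost in molar. The molar values of Sgms2, Lrp4, Lrp6 and Kl lay within it as well. So did those of the mural gene Des (3.17 FPKM) and the endothelial gene Kdr (2.52 FPKM in molar, 0.297 in incisor). The calls of Kl, Des and Kdr toward molar are uncertain for that reason.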

How the data were processed

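RNA of FDG-sorted pulp cells was compared between molar (2 libraries) and incisor (2 libraries). Tools named by the submitters' processing notes are edgeR, HISAT2 and Trim Galore, with the build mm10. Which tool made the table, and with what library scaling, is not stated by any label. The deposited table holds 1 FPKM value per tissue, combined by the authors, and their log2 fold change (molar over incisor, no pseudocount), test score, p-value and q-value, per the file headers. FPKM is named as the unit from the column layout, since no label states it. Tissues were tied to columns by the description labels.

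Interval starts were moved by 1 base to be 1-based. The deposited q values equal Benjamini-Hochberg values over the 18770 tested rows to within 5.13e-07. A gene was called at q under 0.05, with alternatives at 0.01, at the authors' mark, and after a filter at 1 FPKM, and log2 differences used a pseudocount of 1 FPKM, with 0.1 and 5 as alternatives. Python 3.11.15 with pandas 2.3.3 was used. Transcript words of 32 bases came from the longest GENCODE M21 transcript with a RefSeq mRNA. Every member is named, and of each other list the called genes with the largest folds and the partners of a member. The members and lists were chosen with earlier results of these data known, and 1 gene of the transcription factor list is not reported here.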

Additional observations from a re-analysis of the deposited data

How the results depend on the processing

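With a q threshold of 0.01, 2 of the 9 tested members were called, beside 11.1% of all tested rows, Alpl (1 higher in molar) and Ank (1 higher in incisor), and Slc20a2 and Smpd3 were not. At that threshold 8 of the other mineralisation genes were called in place of 13, with 2 in place of 5 higher in incisor. Slc20a1 was also called by the authors' mark and after adjustment over rows with at least 1 FPKM in either tissue, and Kl was not called under that filter, which leaves it out. The members' median log2 difference of -0.028 was -0.052 with a pseudocount of 0.1, -0.0089 with 5, -0.15 with equal totals, -0.078 with median centring and -1.30 over the 6 members with at least 1 FPKM in either tissue. The cause of these shifts was not tested beyond the settings' own construction. Under equal totals and median centring the 8 members above 0 in both tissues had differences of the same sign as in the main values, and a change of pseudocount cannot turn a sign. No paired analysis was possible because the table holds 1 combined value per tissue, and for the same reason leaving out each replicate was not run. Depth is not known from FPKM and limits the low members most.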
